A study of Mus musculus with 24 samples.

Results

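The probes described here lie on mouse chromosome 5 within 15 Mb of the probe for Kcnk3, the gene that is disrupted in the null mice of this study. They were taken by the mm9 position in the array files, from base 15927090 to base 45927090. A probe was taken when at least 3 of the 24 arrays read it well above background, and probes for Insig1 and for genes whose names start with Kcn or Cacna were left out. Of 703 such probes in the window, 517 passed, among 36838 probes tested on the whole array. They comprise 370 gene probes, 311 of them with a current symbol for 234 genes, and 147 probes for 54 long intergenic noncoding RNA (lincRNA) regions of the array design. Kcnk3 itself is not a member.

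Total RNA of adrenal glands was hybridized to one-colour arrays, 3 arrays in each of 8 groups. All samples carry the strain label C57BL/6, and the design text speaks of a WT strain and a Kcnk3 null strain. The male groups were WT sham, WT castrated, Kcnk3 null sham and Kcnk3 null castrated. The female groups were WT sham, WT testosterone (injected), Kcnk3 null sham and Kcnk3 null testosterone. Age, dose and duration, the targeting construct and the strain of the cells used to make the null allele are not given in the sources used here. The labels number the samples of a group but do not say whether each is 1 animal, so the p-values measure the spread between these samples. Whole glands were used, so fewer cells of a type and less RNA per cell cannot be told apart.

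Kcnk3 encodes TASK-1, a two-pore-domain potassium channel that sets the resting membrane potential of adrenal cortex cells. Genes that lie near each other on a chromosome are inherited together, so animals chosen for an allele at one gene also share the alleles around it. LincRNAs are transcribed from between protein-coding genes, and most of those in this window have no assigned function. In a null minus WT comparison of this window, the loss of the channel and any other difference that the null animals share on this chromosome cannot be told apart.

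The sequences below are those of the probes on which the results turn, given 5′ to 3′ with their mm9 positions. The first pair, from the reverse-strand lincRNA region 23195569 to 23218551, showed the largest rises among lincRNA probes, and the third line is the probe of the same region that fell. Capitals mark the hexamer AATAAA, the common polyadenylation signal, which occurred in 12.4% of the 517 probes and 11.6% of all 36838 probes when the probe strand alone was searched.
chr5:23204914-23204973, reverse strand: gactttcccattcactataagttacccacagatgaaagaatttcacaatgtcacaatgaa
chr5:23204747-23204806, reverse strand: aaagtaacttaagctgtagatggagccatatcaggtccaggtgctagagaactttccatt
chr5:23216156-23216215, reverse strand: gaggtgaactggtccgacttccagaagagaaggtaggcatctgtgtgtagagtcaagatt
The next lines show a rising probe of the region 22928221 to 22939127 and, on the same strand less than 40 kb away, the probe of the overlapping region 22801058 to 22939737 that was not well above background on any null array.
chr5:22929042-22929101, reverse strand: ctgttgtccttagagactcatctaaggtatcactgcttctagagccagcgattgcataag
chr5:22892488-22892547, reverse strand: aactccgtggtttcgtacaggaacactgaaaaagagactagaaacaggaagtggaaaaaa
The lincRNA region 33174092 to 33200792 held the largest fall and, in its next probe, almost no difference.
chr5:33183477-33183536, reverse strand: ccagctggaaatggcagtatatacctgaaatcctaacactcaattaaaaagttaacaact
chr5:33184119-33184178, reverse strand: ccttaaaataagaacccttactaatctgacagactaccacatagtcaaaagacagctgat
Of 4 gene probes, 30 bases each are shown: Abhd1 and Rint1, the largest rise and the fall without overlap among named genes, and both Tomm7 probes, which disagreed.
Abhd1, in chr5:31256786-31256925, forward strand: agccaattgaaaaggtgttggatgtagact
Rint1, in chr5:23326056-23326115, forward strand: gtgagatcttatctgtttcaccaccacaaa
Tomm7, in chr5:23344763-23344822, reverse strand: ttttggcctttaAATAAAactgtttagcat
Tomm7, in chr5:23345484-23345543, reverse strand: tgatttatgatagactatcaaAATAAAtat

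Several arrays went against their labels or held RNA of another tissue. The Kcnk3 probe read 5.00 to 6.46 on the WT arrays and 2.08 to 4.96 on the null arrays, in log2 units relative to the 75th percentile of each array, the scale of all levels here. Its signal on null arrays was 7.74% to 56.6% of the WT mean. On 9 arrays a sex-linked signal of the opposite sex reached at least 10% of its level in the sex it belongs to. The reference was the male WT sham mean for Y-linked signal and the female null sham mean for Xist, the transcript of the inactive X chromosome. The 9 are arrays 2 and 3 of female WT sham, all 3 of female WT testosterone, and arrays 1 and 2 of male null sham and of male null castrated. Below the 10% limit, array 3 of male null sham and of male null castrated still read Xist at 6.08% and 4.15%. The WT male arrays read it at 1.11% or lower. Fits without the 9 arrays therefore keep some Xist signal in both male null groups. Albumin, a liver transcript, stood at 7.38 on male WT sham array 3 and at 8.29 on female null testosterone array 1, and at 1.25 or lower on all others. Slide 4 held only array 3 of female WT sham and array 3 of female WT testosterone, both with an RNA integrity number of 3, against 5 to 9 on slides 1 to 3. On slide 3 the female arrays were therefore all null. Without slide 4, 53 members were called, 43 of them among the 58 described next, and the part of slide and RNA quality in the results was not tested. The adrenal labels were borne out by 8 of 8 steroidogenic and 7 of 7 chromaffin markers above background on all 24 arrays. None of these 15 markers, nor any adipocyte, liver, kidney, red blood cell or macrophage marker tested, passed the test in the average comparison, while 3 of 4 sex-linked markers did. The summed chromaffin level ranged from 9.14 to 9.90 on WT and from 8.06 to 9.88 on null arrays, and the adipocyte level from 8.84 to 10.22 and from 7.72 to 9.35.

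The largest rise was that of Abhd1, an alpha/beta hydrolase gene 0.33 Mb above Kcnk3, followed by a lincRNA 7.72 Mb below. The largest falls were in lincRNA probes 2.26 Mb above and about 8 Mb below, and among gene probes in Gm6745, a predicted gene. The comparison was the mean of the 4 null groups minus the mean of the 4 WT groups, tested per probe with limma, with p-values adjusted by Benjamini-Hochberg over all 36838 probes and a call at 0.05. Of the 517 probes 58 were called, 11.2%, against 2.45% of all probes tested. Higher signal in null glands was called for 21 and lower signal for 37, against 1.17% and 1.28% of all probes. Among gene probes 26 of 370 were called, 7.03%, against 2.75% of all gene probes. Among lincRNA probes 32 of 147 were called, 21.8%, against 1.39% of all lincRNA probes. The called gene probes were 10 higher and 16 lower, against 399 and 389 over the whole array. The called lincRNA probes were 11 higher and 21 lower, against 32 and 81 over the whole array, where falls prevailed too. The median difference was -0.06 over the members and -0.03 over all probes, and the median absolute difference was 0.17 against 0.14.

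Without the 9 arrays with opposite-sex signal the average covered 3 pairs of groups, and 11 members were called, against 36 of 36809 probes (0.0978%) on the array. Those 11 were Abhd1, BC023969, the rising Tomm7 probe and 8 lincRNA probes. All 57 of the 58 original calls that could be estimated there kept their sign, which their choice on these same arrays largely fixes. Without both arrays with liver transcripts 56 members were called, 49 of them among the original 58. Whether sex-linked or liver RNA had a part in the differences was not tested.

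**Figure D1:**
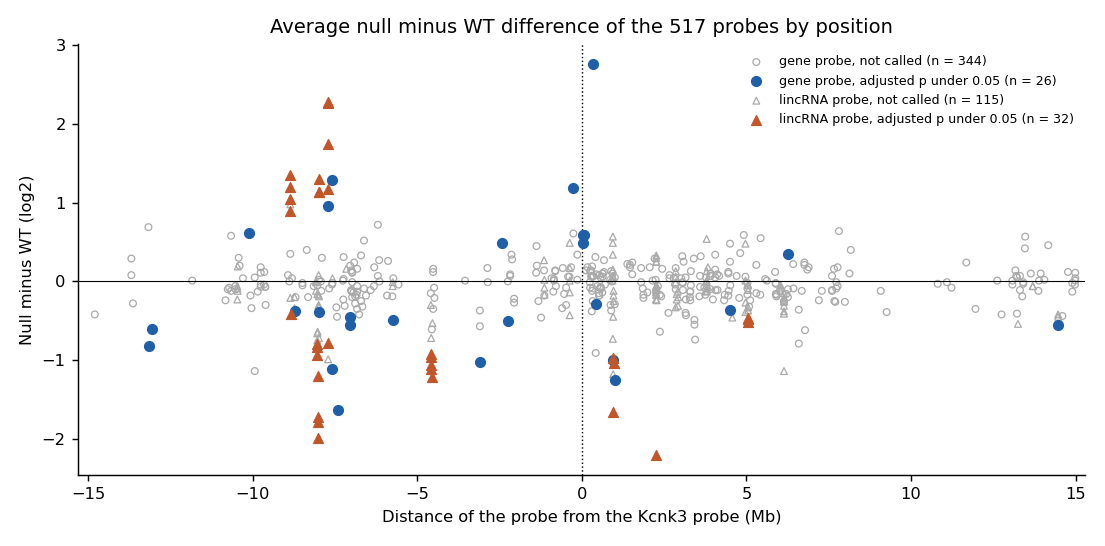
Each point is 1 of the 517 probes, placed by its distance from the Kcnk3 probe in Mb (x axis) and its fitted average null minus WT difference in log2 units (y axis), with circles for gene probes, triangles for lincRNA probes and filled symbols for the 58 called. Filled symbols are densest between 9 and 7 Mb below Kcnk3, where they lie on both sides of 0, and Abhd1 stands alone at 2.77. Differences of probes that are near background in some groups are fitted values and not sizes.

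By position, the share of called probes was highest 10 to 5 Mb below Kcnk3, where 29 of 127 were called, 22.8%. It was 11.5% (3 of 26) at 15 to 10 Mb below, 19.5% (8 of 41) at 5 to 1 Mb below and 4.17% (1 of 24) in the last Mb below. Above Kcnk3 it was 14.1% (9 of 64) in the first Mb, 2.42% (3 of 124) at 1 to 5 Mb, 5.63% (4 of 71) at 5 to 10 Mb and 2.5% (1 of 40) at 10 to 15 Mb. The calls were thus more frequent below than above Kcnk3 at every distance but the nearest, and from 1 to 5 Mb above the share was near that of the whole array. With bins of 2.5 Mb the highest share was 33.3%, at 10 to 7.5 Mb below. Outside the window, 8 of 110 probes of chromosome 5 before it (7.27%) and 33 of 1679 after it (1.97%) were called. On the other 19 chromosomes with at least 100 tested probes the share ran from 1.78% to 3.08%. These shares are descriptions, because neighbouring probes often read 1 transcript.

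The rule's limits on position left the following probes at its edges. Just inside the lower edge, at 14.8 Mb, Hgf differed by -0.42 ± 0.12 (SE, adjusted p = 0.0671), and just outside it, at 15.05 Mb, the difference was -0.08. Just inside the upper edge Med28 differed by 0.11 and just outside it 1600023N17Rik by -0.10.

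**Figure D2:**
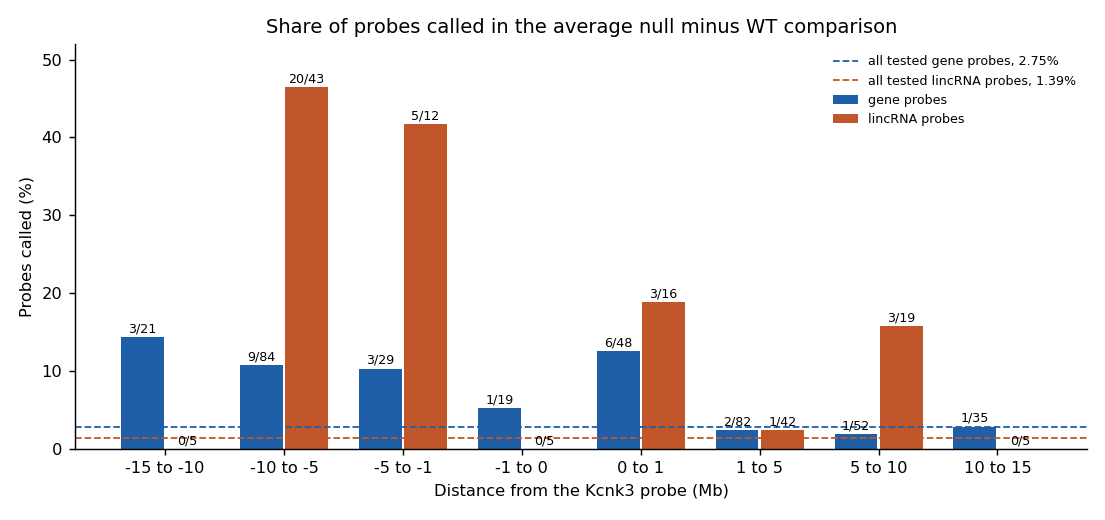
Bars give the percentage of probes called in each bin of distance from the Kcnk3 probe (x axis, Mb), blue for gene probes and orange for lincRNA probes, with called over tested above each bar and dashed lines for all tested probes of that kind (2.75% and 1.39%). LincRNA probes reached 46.5% at 10 to 5 Mb below and 41.7% at 5 to 1 Mb below, and gene probes stayed at 14.3% or lower in every bin.

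The 58 called probes are not 58 independent places. Called probes less than 100 kb apart formed 24 stretches, 14 of which held a single called probe. The called lincRNA probes belong to 15 of the 54 lincRNA regions, several of which overlap each other. Some probes of the same region start 60 bases apart or overlap, so these read adjoining or shared sequence. Other neighbouring called probes of a region start up to 32459 bases apart. On the array as a whole, the 12 null and the 12 WT arrays did not overlap for 21 probes (0.057%). Of these 21, 13 were members, 1 was Kcnk3, 1 lay elsewhere on chromosome 5 and 6 on other chromosomes. Of the 13, 10 were lincRNA probes and 3 were gene probes, those of Abhd1, Rint1 and BC023969. The sign of the difference was the same in all 4 pairs of null and WT groups for 51.0% of the lincRNA members and 31.6% of the gene members, against 23.9% of all probes. That share was not computed for all lincRNA probes alone. Their median difference was negative in each of the 4 pairs, from -0.191 to -0.031.

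Abhd1 was the gene probe with the largest difference. On WT arrays its signal was -2.39, -2.53 and -2.70 in sham males, -2.42, -0.80 and -0.85 in castrated males, -2.89, -2.67 and -2.07 in sham females and 0.11, -0.75 and 0.22 in testosterone-treated females. On null arrays it was 1.19, 0.89 and 0.84 in sham males, 1.58, 1.71 and 1.23 in castrated males, 1.06, 1.26 and 0.88 in sham females and 1.01, 1.20 and 0.67 in testosterone-treated females. All 12 null arrays were above all 12 WT arrays, and the WT arrays spread far more than the null arrays, with testosterone-treated females and 2 castrated males at the top. The average difference was 2.77 ± 0.17 (SE), a 6.83-fold higher signal in null glands (limma, adjusted p = 7.19e-08), and it was 3.31 ± 0.31 without the arrays with opposite-sex signal. Within slides 1 and 2, over all 4 pairs, it was 3.11 and 2.95, and within slide 3, over the male pairs alone, it was 2.81. By pair of groups it was 3.52 in sham males, 2.86 in castrated males and 3.61 in sham females, all called, and 1.10 ± 0.35 in testosterone-treated females (adjusted p = 0.294). The test that the 4 differences are equal gave an adjusted p of 0.0633.

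The immediate neighbours of Kcnk3 on its upper side were also higher in null glands. Slc35f6, a member of the solute carrier family 35 that lies 0.03 Mb above, has a pair of probes that rose by 0.59 ± 0.09 and 0.49 ± 0.09 (adjusted p = 0.00106 and 0.00591). The first ranged from -0.69 to 0.17 on WT arrays (median -0.27) and from 0.02 to 0.69 on null arrays (median 0.34), so the groups overlapped slightly. Cenpa, the histone H3 variant of centromeres, 0.05 Mb above, rose by 0.59 ± 0.10 (adjusted p = 0.00337), from a median of -1.78 to -0.94 with overlapping arrays. Without the arrays with opposite-sex signal these 3 differences were 0.60, 0.25 and 0.73, and none was called.

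Beyond them the nearest genes above did not pass the test. The differences were 0.14 for the transcript ENSMUST00000101442, 0.18 for Dpysl5, a cytosolic phosphoprotein of growing axons, and -0.01 for Mapre3, a protein of microtubule ends. Tmem214 had -0.08 and 0.13 on its 2 probes, Agbl5, a tubulin deglutamylase, had 0.14, and Ost4, a small subunit of the oligosaccharyltransferase, had 0.06. Between Kcnk3 and Abhd1 lay 15 gene probes, of which those 3 of Slc35f6 and Cenpa were called. The other 12 had adjusted p from 0.358 to 0.977.

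Of the 10 nearest gene probes below Kcnk3, 1 was called. Drc1, which encodes a subunit of the nexin-dynein regulatory complex of motile cilia, lies 0.26 Mb below and rose by 1.19 ± 0.18 (adjusted p = 0.00152). It ranged from -3.51 to -2.15 (median -2.74) on WT arrays and from -2.60 to -0.73 (median -1.34) on null arrays. Only a null testosterone-treated female array at -2.60 and a null sham female array at -2.18 reached into the WT range. The neighbouring probe of Otof, the synaptic calcium sensor otoferlin, also 0.26 Mb below, had 0.61 ± 0.20 (adjusted p = 0.129). The others ran from -0.30 for ENSMUST00000114824 to 0.34 for Fam166c. Between these lay Tyms, the thymidylate synthase, at -0.16, and Hadha and Hadhb, the subunits of the mitochondrial trifunctional protein of fatty acid oxidation, at -0.08 and 0.06. Selenoi, an ethanolamine phosphotransferase, was at 0.18, Gm5299 at 0.06 and Cib4, a calcium-binding protein, at 0.02.

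**Figure D3:**
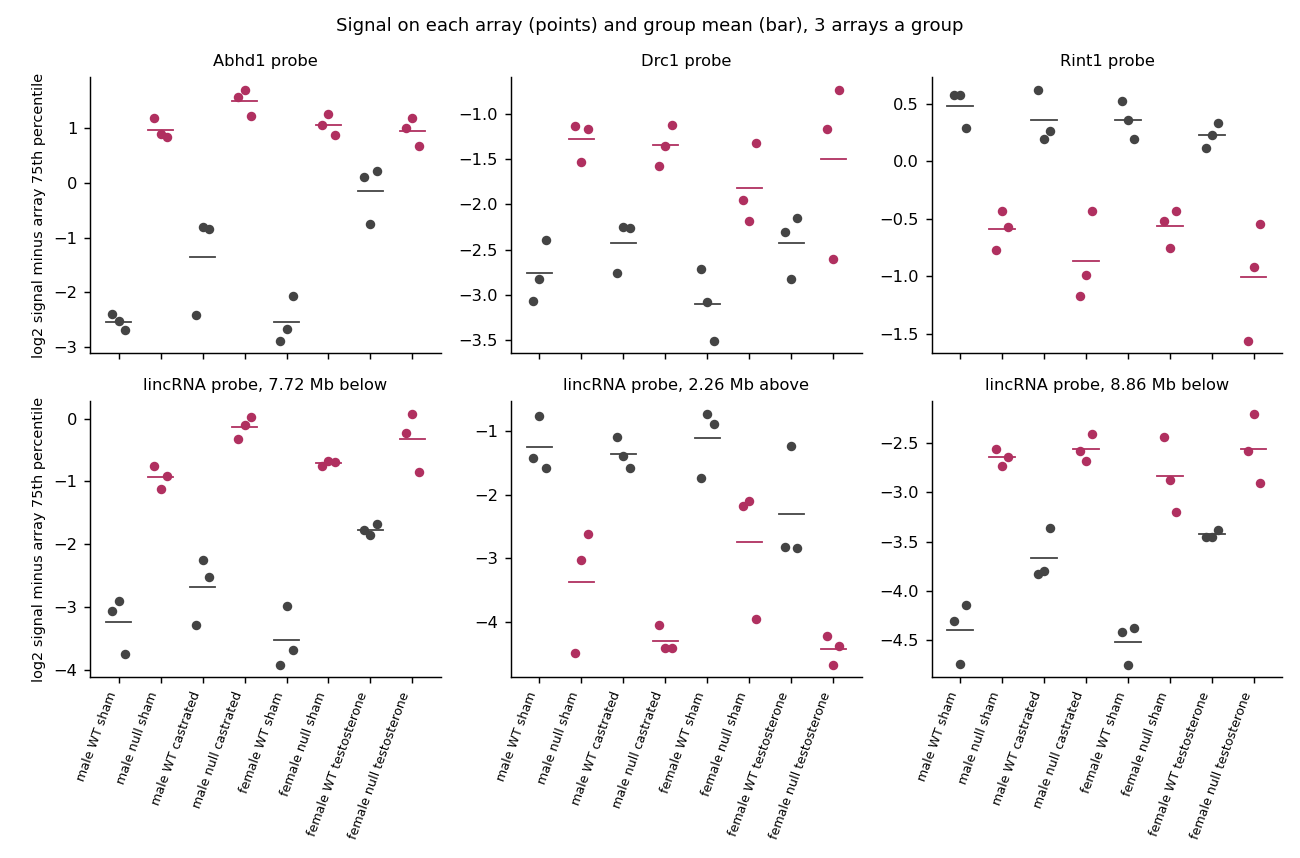
Points are the signals of single arrays (y axis, log2 relative to the 75th percentile of the array) for 6 called probes and bars are group means, with 3 arrays in each of 8 groups, dark for WT and red for null. Null arrays lie above all WT arrays for Abhd1 and for the lincRNA probes 7.72 and 8.86 Mb below, and below all WT arrays for Rint1. For Drc1 and the lincRNA probe 2.26 Mb above, some null and WT arrays overlap.

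The stretch from 8.9 to 7.4 Mb below Kcnk3 held the strongest run of differences, and rises and falls alternated along it. At 8.86 Mb below, in the forward-strand lincRNA region 22058025 to 22072475, 4 of 5 adjoining probes rose. Their differences were 0.89, 1.20, 1.05 and 1.35, and the fifth had 0.98 ± 0.27 (adjusted p = 0.0609). The probe with 1.35 ± 0.11 (adjusted p = 9.59e-07) ranged from -4.75 to -3.36 on WT arrays and from -3.20 to -2.20 on null arrays, without overlap. On the reverse strand of this region the single probe had -0.21 and was not called. A forward-strand probe 0.02 Mb farther along, in the region 22056218 to 22206995, fell by 0.42 ± 0.10 (adjusted p = 0.0276).

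At about 8 Mb below, reverse-strand probes moved in opposite directions in the space of 40 kb. In the regions starting at 22887983 and 22890322, 3 of 6 probes were called lower, with differences of -0.84, -0.80 and -0.94. The uncalled probes were lower on average too, and the 6 differences ran from -0.94 to -0.16. In the region starting at 22801058, a pair of probes at 22892488 and 22892645 was not well above background on any of the 12 null arrays, but was on 11 and 8 of the 12 WT arrays. Taking the lowest signal counted as above background on each null array as the limit, WT signal was at least 3.05-fold and at least 2.1-fold higher (adjusted p = 2.54e-05 and 0.00364). The same region's 3 probes at 22845134 to 22845289 had differences of -0.12 to 0. Its remaining probe was lower on average on null arrays but not called. It ranged from -6.24 to -4.02 on WT arrays and from -6.53 to -4.99 on null arrays. Both probes of the region starting at 22905597 were lower too, with 7 and 1 of 12 null arrays above background against 12 and 10 of 12 WT arrays (adjusted p = 0.0169 and 0.00104).

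Next to them, all 3 probes of the region 22928221 to 22939127 rose. Their differences were 1.14 ± 0.09, 1.14 ± 0.10 and 1.30 ± 0.12 (adjusted p = 1.7e-06, 4.75e-06 and 5.45e-06). The first ranged from 0.80 to 1.61 on WT arrays and from 2.02 to 2.77 on null arrays, and none of the 3 overlapped between genotypes. On the forward strand of the same interval 5 probes ran from -0.72 to 0.08 and none was called. The gene probe BC050254, inside it, had 0.02. Without the arrays with opposite-sex signal the 3 rises were 1.24, 1.27 and 1.60.

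The lincRNA region 23195569 to 23218551, on the reverse strand 7.72 Mb below Kcnk3, had the largest rises of any lincRNA. Its 4 probes from 23204280 to 23205197 rose by 1.17, 2.27, 2.28 and 1.75, with standard errors of 0.14 to 0.16. The probe at 23204914 read -3.06, -2.91 and -3.75 in WT sham males, -3.29, -2.25 and -2.52 in WT castrated males, -3.92, -2.98 and -3.68 in WT sham females and -1.78, -1.85 and -1.68 in WT testosterone-treated females. On null arrays it read -0.76, -1.12 and -0.92, then -0.33, -0.10 and 0.03, then -0.75, -0.67 and -0.69, and -0.22, 0.08 and -0.85, in the same order of groups. No null array overlapped a WT array, and the WT testosterone arrays were again the highest of the WT arrays. The difference was 2.28 ± 0.14 (adjusted p = 7.19e-08), and 2.75 ± 0.27 without the arrays with opposite-sex signal.

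The gene probe BC023969, next to those lincRNA probes on the same strand, rose too, by 0.96 ± 0.14 (adjusted p = 0.00109), with WT arrays from -1.15 to 0.42 and null arrays from 0.71 to 1.38. About 11 kb upstream on that strand, the last 2 probes of the same lincRNA region were lower in null glands. The one at 23216156 fell by 0.78 ± 0.15 (adjusted p = 0.00711), and the one at 23215786 had -0.99 ± 0.33 (adjusted p = 0.131). The printed region therefore contains probes that rose and a probe that fell.

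**Figure D4:**
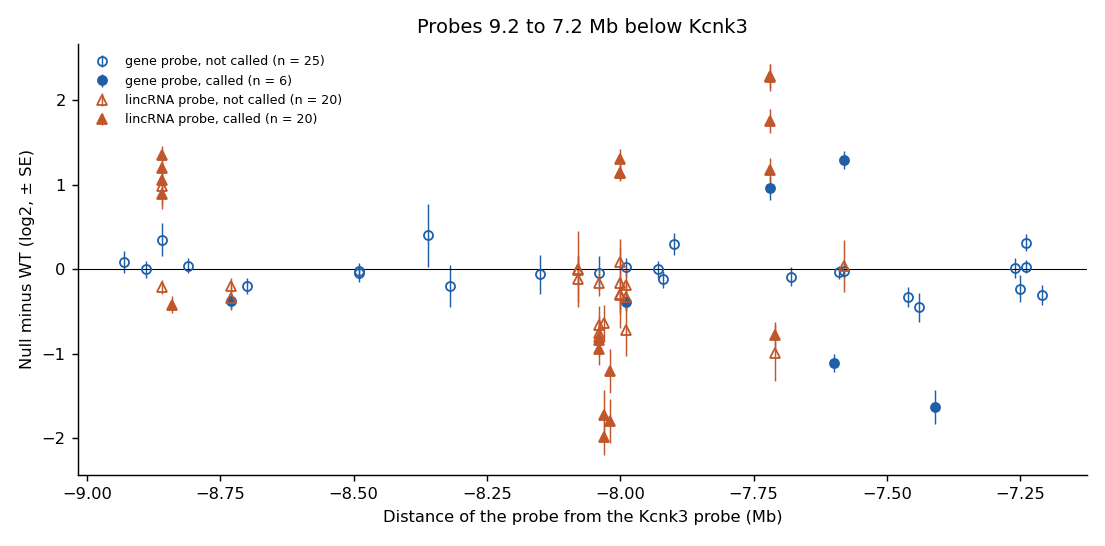
Probes in the stretch around 8 Mb below the Kcnk3 probe are placed by distance (x axis, Mb) and fitted null minus WT difference (y axis, log2, bars are ± 1 SE), blue circles for genes and orange triangles for lincRNAs, filled where called. Rises of 0.89 to 2.28 at 8.86, 8.00 and 7.72 Mb below alternate with falls near 8.03 Mb, at Rint1 (-1.11) and at Gm6745 (-1.63).

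Close by, 0.12 Mb farther along, Rint1 and Tomm7 moved in opposite directions. Rint1, a vesicle tether between the Golgi and the endoplasmic reticulum, ranged from 0.11 to 0.62 on WT arrays (median 0.31) and from -1.56 to -0.43 on null arrays (median -0.66). The arrays did not overlap, and the difference was -1.11 ± 0.11 (adjusted p = 1.98e-05), from -0.93 to -1.23 across the 4 pairs of groups. Tomm7 is a small subunit of the translocase of the outer mitochondrial membrane. Its probe at 23344763 rose by 1.29 ± 0.11 (adjusted p = 2.7e-06), from a median of -3.40 to -1.98. Its other probe, 721 bases away, read a median of 5.60 on WT and 5.53 on null arrays and differed by -0.02 ± 0.09 (adjusted p = 0.945). The Tomm7 probe that differed was the dim one.

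Gm6745, 7.41 Mb below, had a difference of -1.63 ± 0.20 (adjusted p = 0.000136), from a WT median of 0.87 to a null median of -0.97. Nos3, the endothelial nitric oxide synthase, 7.04 Mb below, fell on both of its probes, by 0.56 ± 0.13 and 0.45 ± 0.12 (adjusted p = 0.0258 and 0.0485). The brighter Nos3 probe ranged from 2.49 to 3.19 on WT arrays and from 1.52 to 2.74 on null arrays.

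From 4.6 to 2.2 Mb below, nearly all called probes fell. In the forward-strand lincRNA regions starting at 26323150, 26333765 and 26374425, 5 of 7 probes were called, with differences from -0.92 to -1.22. The brightest ranged from -0.25 to 2.14 on WT arrays and from -1.47 to 1.20 on null arrays, so the groups overlapped widely. Without the arrays with opposite-sex signal these 5 differences were -0.32 to -0.54. One of the Speer4b probes, for a member of a multicopy family expressed in spermatogenesis, was above background on 6 null and 11 WT arrays and was called lower (adjusted p = 0.00981). The other Speer4b probe shares a run of at least 20 bases with probes elsewhere on the array and was not called in the genotype comparison. En2, the homeobox transcription factor engrailed 2, 2.43 Mb below, rose by 0.49 ± 0.11 (adjusted p = 0.0216), and ENSMUST00000030920 fell by 0.50 ± 0.09 (adjusted p = 0.00503).

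Farther below, Gnai1, an inhibitory G protein alpha subunit 13.16 Mb from Kcnk3, fell by 0.82 ± 0.12 (adjusted p = 0.00152), with 1 array left out as an outlier spot. It ranged from 1.16 to 1.63 on WT arrays and from -0.19 to 1.17 on null arrays. The lowest arrays were null females on slide 3, at -0.19 and -0.11. The neighbouring LOC100045248 fell by 0.61 ± 0.15 (adjusted p = 0.0418). Gsap, the gamma-secretase activating protein, 10.13 Mb below, rose by 0.61 ± 0.14 (adjusted p = 0.025). At 8.73 and 7.99 Mb below, Gm9523 and ENSMUST00000101522 fell by 0.38 and 0.39.

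Above Kcnk3 the falls outnumbered the rises once the first neighbours were passed. Atraid, a factor induced by all-trans retinoic acid, 0.43 Mb above, fell by 0.29 ± 0.06 (adjusted p = 0.0206), from a WT median of 4.34 to a null median of 4.09. Around 0.95 to 1.02 Mb above, on the forward strand, 5 of 10 members were called lower. The brightest of these lincRNA probes, at 31916342, ranged from 3.31 to 4.53 on WT arrays and from 2.41 to 3.51 on null arrays and fell by 1.04 ± 0.12 (adjusted p = 0.000116). E130118H10Rik fell by 1.00 ± 0.24 and ENSMUST00000104980 by 1.26 ± 0.14 (adjusted p = 0.0291 and 7.76e-05). The other 2 called lincRNA probes there were above background on 6 and 3 null arrays and on 12 and 7 WT arrays. Mrpl33, a mitochondrial ribosomal protein gene between them, had 0.05.

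At 2.26 Mb above, 1 probe of 9 in the reverse-strand lincRNA region 33174092 to 33200792 was called. The probe at 33183477 ranged from -2.84 to -0.72 on WT arrays (median -1.41) and from -4.68 to -2.09 on null arrays (median -4.14). It fell by 2.21 ± 0.26 (adjusted p = 0.000109), while the other 8 probes, all of them above background on every array, had differences from -0.07 to -0.23. The 3 highest null arrays were 2 of sham females and 1 of sham males, and the lowest WT arrays were 2 of testosterone-treated females.

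The remaining calls above were small. Lrpap1, a chaperone of LDL-receptor family proteins, 4.51 Mb above, fell by 0.36 ± 0.09 on 1 probe (adjusted p = 0.04) and had -0.05 on the other. In the forward-strand lincRNA region 35975265 to 35982561, 3 of 4 probes were called lower, by 0.47 to 0.52, and the other had -0.37. Man2b2, an alpha-mannosidase, rose by 0.35 ± 0.09 (adjusted p = 0.0459), and D5Ertd615e, 14.47 Mb above, fell by 0.55 ± 0.14 (adjusted p = 0.0436).

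Where a gene had several probes, a call on 1 of them was often not shared. Of 64 genes with 2 or more member probes, 6 had a called probe, and in 2 of these, Nos3 and Slc35f6, every probe was called. Tomm7, Speer4b, Xrcc2 and Lrpap1 each had 1 called probe of 2. Over the 64 genes the median gap between the highest and the lowest difference of a gene was 0.15, against 1.31 for Tomm7.

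Base composition was alike in called and other members, and called lincRNA probes were brighter at the median than the others. The median GC content was 43.3% for the 32 called lincRNA probes and 45.0% for the other 115, and 45.0% for the 26 called gene probes and 41.7% for the other 344. The median mean signal was -2.49 and -3.56 for called and other lincRNA probes, and -0.95 and -0.35 for called and other gene probes. None of the 58 called probes shared a run of 20 bases with a tested probe elsewhere on the array, whereas 4 of the other lincRNA and 24 of the other gene members did. Sharing closer by did occur among called probes. Those of the lincRNA regions starting at 22887983 and 22890322 each shared such a run with 4 other probes. D5Ertd615e and the called probes of the regions starting at 26323150 and 26374425 each shared one with 1 other probe. Of the 311 members with a RefSeq symbol, 4 carry a gene placed on another chromosome by RefSeq (GRCm38.p6), and none of these was called.

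The genes of the window were also grouped by function into 5 lists, whose counts stand beside calls for 7.03% of the window's gene probes and 2.75% of all gene probes. Of 19 transcription and chromatin genes 1 was higher (En2), and Fosl2, an AP-1 subunit, had 0.24. Of 13 genes of cell division and the cytoskeleton 1 was higher (Cenpa), and Tacc3, a spindle protein, had 0.25 (adjusted p = 0.34). Of 14 signalling and secreted genes 1 was lower (Nos3), Prom1, a membrane glycoprotein, had 0.42 and Shh, the sonic hedgehog ligand of the adrenal subcapsule, had 0.34 (adjusted p = 0.103 and 0.27). Of 19 metabolic genes 1 was higher (Abhd1), Slc5a6, a vitamin transporter, had 0.31 and Rbks, a ribokinase, had -0.29 (adjusted p = 0.0867 and 0.0521). In the list for membrane traffic and translation, 2 of 21 were higher (Drc1, a ciliary gene, and Slc35f6) and 2 were lower (Atraid and Lrpap1). The median differences of the 5 lists ran from -0.02 to 0.07, against -0.03 for all probes, and the lists were drawn up with earlier results of these data known.

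Within the 4 single pairs of groups fewer probes were called, and most of those were rises. In sham males 9 members were called (1.74%, against 0.0814% of all probes), all higher in null glands. They were Abhd1, the Tomm7 probe at 23344763 and 7 lincRNA probes at 8.86, 8.00 and 7.72 Mb below. In castrated males 20 were called (3.87%, against 0.66%), 13 higher and 7 lower. In sham females 14 were called (2.71%, against 0.483%), 12 higher and 2 lower. Rises also prevailed among all probes of the array called in these pairs. They made up 28 of 30 in sham males, 143 of 243 in castrated males and 122 of 178 in sham females. In testosterone-treated females none was called by limma, against 0.0516% of all probes, although 92 of the 517 (17.8%) had an unadjusted p below 0.05, against 8.54% of all probes. Other settings called 0 to 8 there, and array weights called 33. The counts depended on single arrays: in sham males 4 or 5 were called without WT array 1, 2 or 3 or null array 2. In castrated males 7 to 13 were called without any 1 of its 6 arrays. Without the arrays with opposite-sex signal, male null sham, male null castrated and female WT sham kept 1 array each, which was assumed to vary like the other groups. In that fit 0 were called in either male pair and 6 in sham females, and the testosterone pair had no WT array left.

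The 4 pairs share no arrays, and the test of whether their differences are equal called 1 member of 517 (0.193%, against 0.263% of all probes). This was Dok7, an adaptor of the muscle-specific receptor kinase, 4.50 Mb above (adjusted p = 0.0348). In sham males it read -3.96, -3.69 and -3.98 on WT and -4.26, -4.37 and -4.13 on null arrays, and in castrated males -3.03, -3.04 and -3.57 on WT and -1.45, -2.18 and -1.76 on null arrays. In sham females it read -3.14, -3.50 and -3.87 on WT and -2.18, -3.02 and -2.94 on null arrays, and in testosterone-treated females -2.48, -3.17 and -3.42 on WT and -3.81, -3.49 and -4.21 on null arrays. The null arrays were thus higher in castrated males and sham females and lower in sham males and testosterone-treated females. The differences were 1.42, 0.79, -0.38 and -0.81 in that order, each with a standard error of 0.28. Leaving out 1 array at a time, no member was called without male WT sham array 1, 2 or 3, male WT castrated array 2 or 3, male null sham array 1 or 2, male null castrated array 1 or 3, female WT sham array 2, female WT testosterone array 1 or female null testosterone array 3.

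The comparisons of treatment and sex averaged WT and null groups. Castrated minus sham males called 16 members (3.09%, against 1.96% of all probes), and female minus male sham called 25 (4.84%, against 4.09%), shares not far above those of the whole array. Of these, 3 and 6 were also called in the average genotype comparison. After castration Dok7 was higher by 1.56 ± 0.20 (limma, adjusted p = 0.00028), with 0.66 in WT and 2.46 in null males. The 3 probes of the lincRNA region starting at 26333765 were higher by 1.55 to 1.72 (adjusted p = 0.0122 to 0.0359), with 1.64 to 1.72 in WT and 1.46 to 1.74 in null males. Shh fell by 0.97 ± 0.21 (adjusted p = 0.0167), with -0.49 in WT and -1.44 in null males. These differences between genotypes were tested only through the test over all 4 pairs. Hs3st1, a heparan sulfate sulfotransferase, and Jakmip1, a microtubule-binding protein, were named after their values were seen, with 1.49 ± 0.17 and -1.06 ± 0.14 (adjusted p = 7.7e-05 and 0.000482). In sham females relative to sham males, Cpz, a carboxypeptidase that binds Wnt proteins, was higher by 1.31 ± 0.24 and Cytl1, a secreted cytokine-like protein, lower by 1.28 ± 0.29 (adjusted p = 0.00353 and 0.0142). The Speer4b probe that shares bases with probes elsewhere had the largest fitted difference of a called member in castrated minus sham males, 1.79. It also had the largest in female minus male sham, 1.38. Its signal was dim, with means of -6.62 in WT and -7.19 in null sham males. The sham groups of both sexes enter 2 of these comparisons each, so their results are not independent.

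Testosterone minus sham females, again averaged over genotypes, called 6 members (1.16%, against 0.459% of all probes). Wfs1, an endoplasmic reticulum membrane protein, was lower by 0.57 ± 0.11 (adjusted p = 0.0315). The other 5 were Abhd1, higher by 1.15 ± 0.24 (adjusted p = 0.0434), and 4 lincRNA probes at 8.86 and 7.72 Mb below, higher by 0.68 to 1.06, which are among the members called in the genotype comparison. Within genotypes the Abhd1 mean went from -2.54 to -0.14 in WT females and from 1.07 to 0.96 in null females. The 4 lincRNA probes differed by 1.03 to 1.77 in WT and by 0.28 to 0.39 in null females, while Wfs1 had -0.59 and -0.55. The 3 WT testosterone arrays are all among those with opposite-sex signal. Leaving out single arrays gave 0 to 7 calls, with 0 without null sham female array 2 or WT testosterone array 3. Without the arrays with opposite-sex signal this comparison could not be made.

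Each array was also placed between 2 group means. For the 13 called probes that rose by more than 1, and linear signal, the male WT sham mean was set at 0% and the female null sham mean at 100%. The median position of the 13 was 36.1%, 28.3% and 39.1% on the WT testosterone arrays, 0.134%, 19.9% and 12.8% on the WT castrated male arrays, and -12.5% to 3.76% on the 6 WT sham arrays. The 12 null arrays lay between 77.1% and 165%, which the choice of probes with higher null signal on these same arrays largely fixes. Abhd1 alone was at 46.8%, 22.0% and 51.2% on the WT testosterone arrays. The 3 WT testosterone arrays also carried Y-linked signal at 32.9%, 19.2% and 36.0% of the male WT sham level. Female WT sham arrays 2 and 3 carried it at 25.4% and 45.5%, with median positions for the rises of -0.757% and -9.72%. On the WT castrated male arrays the Xist signal was 0.56% to 1% of the female null sham level. For the 14 called probes that fell by more than 1 the medians were 68.9%, -4.67% and 70.9% on the WT testosterone arrays. They were 42.4% on male WT castrated array 3, 36.8% on male WT sham array 3 and 34.8% on female WT sham array 3, and lower on the other WT arrays. The 2 reference means differ in sex as well as genotype, and for some falling probes they lay close together. Positions of such probes ran far outside 0% to 100%. The called probe of the region starting at 26374425 read -272% on male null sham array 1 and 1780% on female WT sham array 3. The medians of the falls are therefore not plain positions between WT and null. Whether the Y-linked signal and the intermediate levels are related was not tested.

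**Figure D5:**
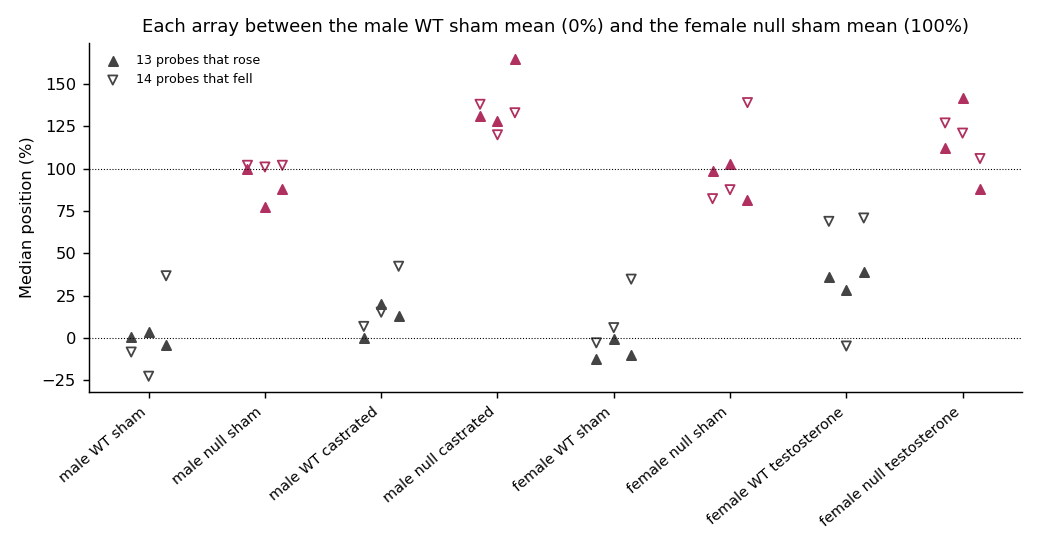
Each symbol is the median position of 1 array (y axis, %) between the male WT sham mean (0%) and the female null sham mean (100%), filled triangles for the 13 called probes that rose by more than 1 and open triangles for the 14 that fell by more than 1, dark for WT and red for null arrays, by group (x axis). Null arrays lie between 77.1% and 165% for the rises, WT testosterone arrays between 28.3% and 39.1%, and the other WT arrays at 19.9% or lower.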

How the data were processed

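Per the labels, adrenal RNA (0.2 µg a sample) was labelled with Cy3 for 1-colour arrays. The deposited scanner files hold spot intensity values, per the file headers, from Feature Extraction 10.7.3.1, a processed signal with background subtracted, flags for outliers and for signal well above background, and mm9 probe positions. The authors' deposited value table holds log2 values, with array medians of 6.33 to 6.34 and a correlation of at least 0.998 with log2 raw mean signal; its normalization is not given in the sources used here. It was an alternative.

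Here the log2 processed signal minus the 75th percentile of each array was used. Outlier spots (160 to 283 an array) were dropped before replicate spots were averaged. Between 57.0% and 64.7% of spots were well above background, and the number of arrays limits the precision. Differences were fitted with limma 3.58.1 in R 4.3.3 (lmFit and eBayes, 8 group means, 16 residual and 2.28 prior degrees of freedom, Benjamini-Hochberg over 36838 probes). Tables and figures used Python 3.11.15 with pandas 2.3.3. The average comparison was tested on simulated data of 36838 probes. The fit called 71 of 100 probes changed by 1 and 99 of 100 changed by 2 on the log2 scale, with 7 false calls. The simulated noise was normal and independent between probes and arrays, with the same shift on every null array. It held no effect of slide, RNA quality or opposite-sex signal, so the 7 are no error rate for the real comparison. Symbols came from RefSeq (GRCm38.p6) by accession (275 members) or symbol (36). Probe sequences are those of the files.

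Named probes are up to 15 called genes with the greatest rise and 15 with the greatest fall, the 10 largest lincRNA differences, the 10 gene probes nearest Kcnk3 on each side, genes whose probes disagreed, called probes of the interaction, the largest treatment and sex differences, and up to 4 genes of each functional list. Further probes of the lincRNA regions were named after their values were seen. Members and lists were chosen with earlier results of these data known.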

Additional observations from a re-analysis of the deposited data

Results flagged for a closer look

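The difference between null and WT glands was not the same in all 4 pairs of groups for Dok7, with an adjusted p of 0.0348 in limma's F test of equal differences. Its differences were -0.38 in sham males, 1.42 in castrated males, 0.79 in sham females and -0.81 in testosterone-treated females. Groups of 3 arrays are too small for the check for a single deviating sample.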

How the results depend on the processing

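Of the 58 average calls, every one that could be fitted kept its sign under each alternative refit, and 42 to 57 stayed called when 1 array was left out. The calls were chosen on the same arrays that the refits reuse, so the kept signs are not an independent check. The counts of called members with 1 array left out ran from 42 to 61 for the average (17 to 30 gene probes, 17 without male WT sham array 1, and 23 to 32 lincRNA probes), 4 to 9 in sham males, 7 to 22 in castrated males, 10 to 17 in sham females, 0 to 2 in testosterone-treated females, 0 to 3 for the interaction, 11 to 19 for castration, 0 to 7 for testosterone and 13 to 28 for sex. Array weights raised all counts: 121 for the average (71 gene, 50 lincRNA; 9.53% of all probes), 33, 48, 44 and 33 in the 4 pairs, 21 for the interaction, 59 for castration, 30 for testosterone and 69 for sex. Without the 9 arrays with opposite-sex signal the counts were 11 (3 gene, 8 lincRNA), 0 and 0 in the male pairs, 6 in sham females, 0 for the interaction, 5 for castration and 7 for sex, with only 15 arrays in the fit. With the replicate number as a block (replicate block) 72 members were called in the average, 8 in testosterone-treated females and 2 for the interaction. That block called 1645 probes of the whole array, against 901. The numbers were not treated as pairs, since same-numbered arrays correlated from -0.372 to 0.678 (mean 0.218), but the number equals the slide on 22 of 24 arrays. The slide block gave 6, 2, 11 and 43 for testosterone-treated females, the interaction, testosterone and sex. RNA integrity as a covariate gave 40 gene probes in the average, 3 in testosterone-treated females and 2 for the interaction. For testosterone-treated females normexp gave 5, the deposited values gave 2, trend and robust fitting 2, and quantile, the filter on all arrays and the fit without liver arrays 1 each. For the interaction trend and robust fitting gave 3, no filter 0, and normexp, the deposited values, the filter on all arrays and the fits without slide 4 or without liver arrays 2 each. For testosterone, no filter gave 1 and the fit without slide 4 gave 3, and for sex no filter gave 15. The highest share by position was 33.3% with bins of 2.5 Mb, against 22.8%. The causes were not tested.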
